A study of Mus musculus with 8 samples.

Results

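Wnt ligands are the secreted signals of the Wnt pathway, and 10 of them that are known from skin are described here, out of 20284 genes named on the arrays. They were chosen by name (Wnt2b, Wnt3, Wnt3a, Wnt4, Wnt5a, Wnt6, Wnt7b, Wnt10a, Wnt10b and Wnt16), and their probes were found through the RefSeq accession that each probe carries. All 10 had a probe that passed the filter on dim signals, Wnt16 had 2 such probes and the others had 1. Total RNA of whole mouse skin was hybridised to 8 Agilent one-colour arrays, 4 of skin labelled DTG and 4 of skin labelled Control. Musashi1, whose overexpression in skin the title gives as the subject, binds RNA and is the product of Msi1. The labels do not spell out DTG, and give no promoter, strain, age or body site, and they call every sample male. They speak of 4 skins per group without saying that each came from its own animal, so the p-values reflect how far these samples spread, part of which may be technical.

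Wnt proteins are lipid-modified in the cell that makes them, carried out of it by Wls, and bind Frizzled receptors with the co-receptors Lrp5 and Lrp6 on the receiving cell. In the canonical branch this stabilises beta-catenin, which acts with TCF/LEF factors on target genes such as Axin2. Other ligands act mainly without beta-catenin, on cell polarity and movement. In skin, epithelial Wnt ligands are needed to form hair placodes, canonical signalling starts the growth phase of the hair follicle and drives hair shaft differentiation, and basal keratinocytes both make and receive Wnt signals.

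Array measures differed with the group, and they touch every value given here. Between 68.8% and 71.6% of spots were well above background on DTG arrays, against 79.5% to 85.1% on Control arrays. Negative control spots were brighter on DTG arrays, with means of 4.27 to 4.69 (log2, before scaling) against 2.40 to 3.29 on Control arrays. Dim ligands are the most exposed to this. All arrays lay on 1 slide, with DTG arrays in one row and Control arrays in the other, so the group and the slide row cannot be told apart. The brighter Msi1 probe was higher in DTG by 6.81 (log2, SE 1.02, limma adjusted p = 0.00292), over 3 DTG arrays with an unflagged spot, while its other probe was at -0.026. Although all samples are labelled male, Xist read as in females on 3 DTG and 2 Control arrays. Scaling also mattered: on the main scale, set by each array's 75th percentile of signal, the median gene changed by -0.15 (log2, DTG minus Control), but by 0.34 on a scale set by the spike-in control spots. Of all genes called different, 65.6% were lower in DTG on the main scale, 41.7% with no scaling, 16.1% on a scale set by 7 basal epidermis genes and 6.71% on the spike-in scale. Whole skin mixes many cell types, and fewer cells of a type cannot be told apart from less RNA per cell.

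Most of these Wnt ligands were lower in DTG skin than in Control skin. With limma and Benjamini-Hochberg adjustment over 17724 genes, 8 of the 10 were called lower, 1 was called higher (Wnt2b) and 1 was not called (Wnt10b), at an adjusted p under 0.05. Of all genes tested, 21.3% were called lower and 11.2% higher. The groups did not overlap for 8 of the 10, against 34.5% of all genes, and DTG lay below Control for 7 of these, against 23.1% of all genes. The median log2 fold change of the 10 ligands was -0.85, against -0.15 over all genes tested. These counts and the median include Wnt3a, whose probe passed the filter through the Control arrays alone. The 10 were chosen with earlier results of these data known, so setting them against all genes is a description and no test. Each level below is a log2 signal with the 75th percentile of its array subtracted, given for DTG 1 to 4 and then Control 1 to 4. They compare arrays for 1 gene and do not rank genes against each other, since each probe has its own brightness. Changes on the log2 scale subtract Control from DTG, and SE is their standard error in the limma fit.

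**Figure D1:**
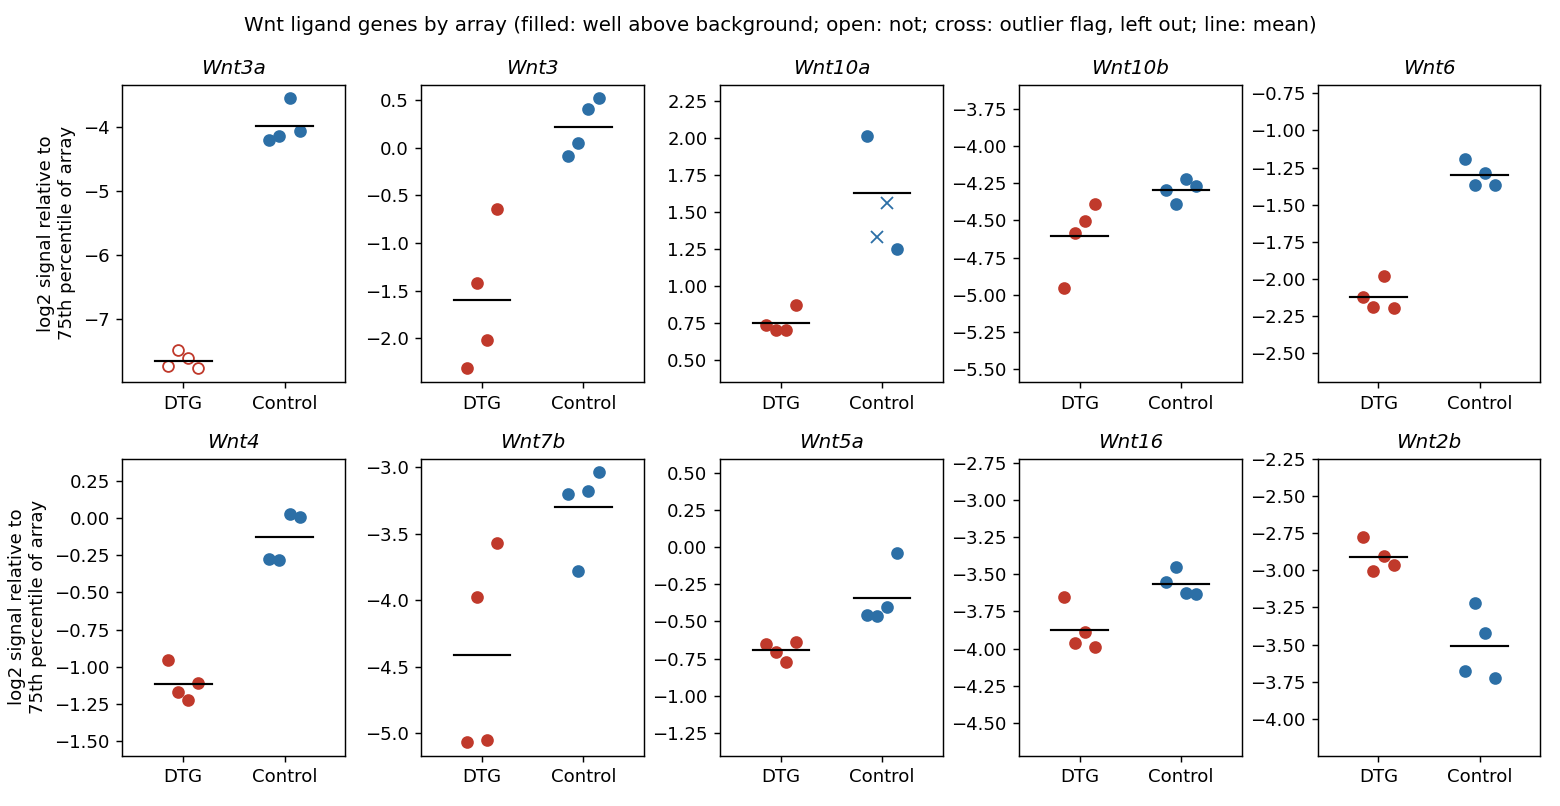
Log2 level above or below the 75th percentile of the array (vertical axis) of each of the 10 Wnt ligands on each array, with DTG left of Control; points are arrays (open where not well above background), crosses are flagged spots that were left out, and lines are group means. DTG arrays lie below Control arrays in 7 panels and above them in the Wnt2b panel, and the Wnt7b and Wnt10b panels overlap.

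Wnt3a and Wnt3 are close relatives and typical activators of the beta-catenin branch. Wnt3a read -7.74, -7.48, -7.61 and -7.77 in DTG skin, against -4.20, -4.13, -3.55 and -4.05 in Control skin. It was well above background on 0 of 4 DTG arrays and on 4 of 4 Control arrays, so only a bound can be given. On the main scale Wnt3a was at least 2.67-fold lower in DTG. That bound sets the Control mean against the lowest signal that counted as well above background on each DTG array, and the fitted change (limma, adjusted p = 1.03e-05) is no measure of its size. On the spike-in scale, which moves changes up by 0.48, the bound would be smaller. The Wnt3a probe passed the filter through the Control arrays alone, so the filter itself built in a difference. Wnt3 was measured on all 8 arrays, at -2.32, -1.42, -2.02 and -0.64 in DTG skin and -0.09, 0.05, 0.41 and 0.52 in Control skin. Every DTG array was below every Control array, and the DTG arrays were more spread out (SD 0.74) than the Control arrays (SD 0.29), with DTG 4 nearest to Control. Wnt3 fell by 1.82 on the log2 scale, which is 3.54-fold (SE 0.34, limma adjusted p = 0.0053).

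Wnt4 acts in many tissues as a paracrine signal and is made by epidermal keratinocytes. Its levels were -0.95, -1.17, -1.23 and -1.11 in DTG skin, against -0.27, -0.28, 0.03 and 0.01 in Control skin. The groups stood clear of each other, and Wnt4 fell by 0.99 on the log2 scale, or 1.98-fold (SE 0.11, limma adjusted p = 0.000623). Wnt7b, a ligand of the epithelium and of growing hair follicles, was at -5.07, -3.97, -5.05 and -3.57 in DTG skin and at -3.20, -3.78, -3.18 and -3.04 in Control skin. DTG 4 was above Control 2, and the 2 DTG arrays with the higher Wnt7b level, DTG 2 and DTG 4, were also those with the higher Wnt3 level. Wnt7b fell by 1.11 on the log2 scale, or 2.17-fold (SE 0.35, limma adjusted p = 0.042), and lost the call in 14 of 23 alternative settings. Its lowest levels, on DTG 1 and DTG 3, were well above background but near the limit. The lowest signals that counted as such were -5.51 and -5.35 on those arrays.

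Wnt3a had no DTG array well above background, Wnt4 fell near 2-fold with tight groups, and Wnt2b was the sole rise among the 10. The promoters of these 3 ligands are shown for that reason. Each is the 250 bases before the annotated gene start, 5′ to 3′ on the gene's strand, from RefSeq on assembly GRCm38.p6, and capitals mark GC boxes. A GC box here is GGGCGG on either strand, read as CCGCCC on the reverse strand, and it is the core bound by Sp1-type factors. Wnt3a lies on the minus strand, at chr11:59290752-59291001. Wnt4 lies on the plus strand, at chr4:137277385-137277634, and Wnt2b on the minus strand, at chr3:104961710-104961959.
Wnt3a: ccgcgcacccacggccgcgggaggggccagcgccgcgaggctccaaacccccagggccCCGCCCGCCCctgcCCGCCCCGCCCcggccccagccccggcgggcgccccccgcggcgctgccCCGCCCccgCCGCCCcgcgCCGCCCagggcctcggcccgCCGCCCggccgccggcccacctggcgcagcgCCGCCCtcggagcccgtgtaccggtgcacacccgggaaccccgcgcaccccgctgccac
Wnt4: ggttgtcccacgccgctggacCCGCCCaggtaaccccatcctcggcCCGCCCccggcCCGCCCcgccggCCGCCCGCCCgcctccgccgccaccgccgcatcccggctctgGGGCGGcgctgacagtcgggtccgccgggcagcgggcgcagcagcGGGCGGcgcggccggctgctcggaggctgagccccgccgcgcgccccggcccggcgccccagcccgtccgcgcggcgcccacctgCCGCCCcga
Wnt2b: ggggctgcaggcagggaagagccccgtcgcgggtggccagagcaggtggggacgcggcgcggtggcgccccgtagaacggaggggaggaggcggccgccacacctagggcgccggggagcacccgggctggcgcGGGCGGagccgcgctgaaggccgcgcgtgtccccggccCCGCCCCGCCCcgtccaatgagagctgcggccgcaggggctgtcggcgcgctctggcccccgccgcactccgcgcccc
These windows are rich in G and C, at 87.6% for Wnt3a, 85.2% for Wnt4 and 80.8% for Wnt2b, against a median of 52.4% over 32851 mouse promoters. Wnt3a held 9 GC boxes, a count reached by 0.0731% of those promoters, while Wnt4 held 8 and Wnt2b 3. Of the 10 ligands 7 had an entry, and the others with one were Wnt6 with 6 GC boxes, Wnt3 with 2, and Wnt10b and Wnt16 with 0. At least 1 GC box was thus in 5 of 7 Wnt windows and in 32.7% of all promoters. The TCF/LEF core CTTTGNT was in 0 of 7 (16.0% of all) and the TATA core TATAAA in 0 of 7 (12.4% of all), each searched on both strands. GC boxes that share letters were each counted, so 1 stretch of capitals can hold more than 1 box. None of these motifs overlaps another kind in letters, and a match describes the sequence without showing that a factor binds there. GC boxes were present both in ligands that were lower in DTG and in Wnt2b, which was higher.

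Wnt6 and Wnt10a are neighbours on chromosome 1 and are epithelial ligands, and Wnt10a is required for normal hair and teeth. Wnt6 levels were -2.12, -2.19, -1.98 and -2.20 in DTG skin, against -1.19, -1.37, -1.29 and -1.36 in Control skin. The 2 groups were narrow and separate, and Wnt6 fell by 0.82 on the log2 scale, or 1.76-fold (SE 0.09, limma adjusted p = 0.000545). Wnt10a levels were 0.74, 0.70, 0.70 and 0.87 in DTG skin, against 2.01 and 1.25 on Control 1 and Control 4. The spots of Control 2 and Control 3 carried the scanner's outlier flag and were left out, so this Control mean rests on 2 arrays. With the flagged spots kept, they read 1.33 and 1.56, which also lies above every DTG array. Wnt10a fell by 0.88 on the log2 scale, or 1.83-fold (SE 0.21, limma adjusted p = 0.023), and without DTG 2 the adjusted p was 0.0551. It could not be tested without Control 1 or without Control 4.

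Wnt10b is a canonical ligand of the hair placode and the growing follicle. Its levels were -4.95, -4.58, -4.50 and -4.39 in DTG skin and -4.30, -4.39, -4.22 and -4.27 in Control skin. DTG 4 and Control 2 were at almost the same level, and the change of -0.31 was not called (SE 0.13, 95% interval -0.61 to -0.02, limma adjusted p = 0.0927). The interval includes the change of the median gene, -0.15. The same holds for the 95% intervals of Wnt5a (-0.61 to -0.09) and Wnt16 (-0.54 to -0.07), which were both called lower.

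Wnt5a and Wnt16 act in large part outside the beta-catenin branch. Wnt5a, made by dermal cells and by some follicle cells, was at -0.65, -0.71, -0.77 and -0.64 in DTG skin and at -0.46, -0.46, -0.40 and -0.04 in Control skin. No DTG array reached a Control array, but Control 4 stood above the other Control arrays. Wnt5a fell by 0.35 on the log2 scale (SE 0.11, limma adjusted p = 0.0448). The brighter Wnt16 probe read -3.65, -3.96, -3.89 and -3.99 in DTG skin, against -3.55, -3.45, -3.62 and -3.63 in Control skin, where DTG 1 came within a few hundredths of Control 4. Wnt16 fell by 0.31 by that probe (SE 0.10, limma adjusted p = 0.0487). In the separate fit over all probes this probe was not called (limma adjusted p = 0.053), nor was the dimmer Wnt16 probe, which overlapped between groups at -0.22 (SE 0.23, adjusted p = 0.488). Both calls sat at the threshold: Wnt5a was called in 8 of 23 alternative settings and Wnt16 in 5, and each turned to a positive change on the spike-in scale, at 0.13 for Wnt5a and 0.18 for Wnt16.

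Wnt2b, a canonical ligand, was the sole member called higher. It was at -2.77, -3.00, -2.91 and -2.97 in DTG skin, against -3.67, -3.22, -3.42 and -3.72 in Control skin. Every DTG array was above every Control array. Wnt2b rose by 0.60 on the log2 scale, or 1.51-fold (SE 0.13, limma adjusted p = 0.00998). On the spike-in scale its rise was 1.08 (limma adjusted p = 0.00231), and it kept its call with each array left out in turn.

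The scale decided how many of the falls were called. On the spike-in scale 2 of the 10 were called lower, Wnt3a and Wnt3, where 2.29% of all genes were lower, and Wnt2b was the 1 called higher, where 31.8% of all genes were. On that scale Wnt4 was at -0.50 (limma adjusted p = 0.0768), Wnt6 at -0.34 (adjusted p = 0.0747) and Wnt10a at -0.39 (adjusted p = 0.0972). On the basal epidermis scale, added after the data were seen, 4 were called lower against 4.35% of all genes: Wnt3a, Wnt3 at -1.51 (adjusted p = 0.0142), Wnt4 at -0.67 (adjusted p = 0.00859) and Wnt6 at -0.50 (adjusted p = 0.0111). With no scaling 5 were called lower and 1 higher, against 9.02% and 12.6% of all genes, and with quantile scaling 8 and 1, against 18.6% and 12.9%. Spike-in scaling shifts all genes by about the same amount, so the median of the ligands was -0.36 where that of all genes was 0.34, as far apart as on the main scale (0.70). Calls of Wnt3a under other settings are fits to DTG signals below background and show nothing of its stability. Wnt3, Wnt4, Wnt6 and Wnt2b stayed called in 21 of 23. Wnt3 lost its call within the 5 arrays of high Xist (-1.95, adjusted p = 0.0665) and within the 3 of low Xist (-1.58, adjusted p = 0.061). The low class holds a single DTG array, DTG 2, against Control 1 and Control 3, so it has no DTG spread of its own. Wnt2b lost its call there too, at 0.59 (adjusted p = 0.0864) and 0.54 (adjusted p = 0.167). A test of whether the change itself differed between the Xist classes called 0 of 17290 genes (limma, 1111 at an unadjusted p under 0.05). For the Wnt ligands its adjusted p was 0.684 or more. With each array left out in turn, 4 to 6 ligands were called lower, against 14.4% to 19.6% of all genes. The fewest, 4, came without Control 4, and 5 without DTG 2, DTG 3, Control 1 or Control 3. Each slide column held 1 DTG and 1 Control array, and with the column as a block 4 were called lower: Wnt3a, Wnt3, Wnt4 and Wnt6. Wnt2b was the 1 called higher, where 15.8% of all genes were lower and 8.72% higher. In the authors' deposited value table, which gave no value for Wnt10a, the same 4 were called lower and Wnt2b higher, against 20.3% and 12.2% of all genes. No value within a single column can be tested.

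**Figure D2:**
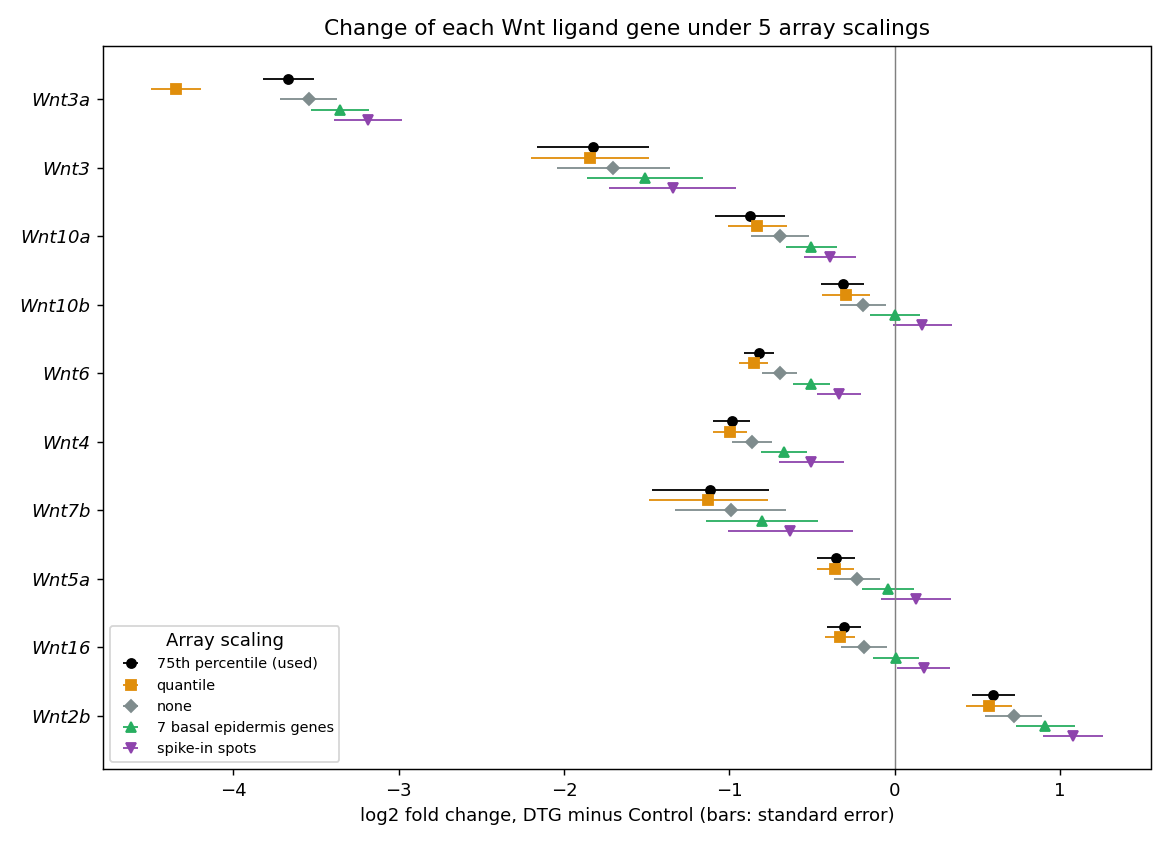
Log2 fold change, DTG minus Control (horizontal axis), of each of the 10 Wnt ligands under 5 ways of putting the arrays on 1 scale. Wnt3a and Wnt3 lie left of 0 and Wnt2b right of 0 under each of them, while Wnt5a, Wnt10b and Wnt16 cross 0 on the spike-in scale, and Wnt10b and Wnt16 lie at 0.00 and 0.01 on the basal epidermis scale. Bars are standard errors, and the Wnt3a point is a fit to DTG signals below background.

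Differences between 2 ligands on the same array do not depend on how arrays are scaled by a constant, so 3 pairs were set against each other within arrays. Wnt3a minus Wnt3 was -6.05 ± 0.77 in DTG skin and -4.21 ± 0.26 in Control skin (SD, n = 4 each), a difference of -1.84. It rests on DTG signals of Wnt3a below background and was -0.34 after normexp background correction, so it is given as a description with no test. Wnt10b minus Wnt10a was higher by 0.55 in DTG skin, with 2 Control arrays (exact two-sided permutation p = 0.133, where the smallest possible is 0.0667, adjusted over the 3 pairs 0.2). With flagged spots kept this difference was 0.50 over 4 arrays a group (exact permutation p = 0.0571, adjusted 0.0857). Wnt10a minus Wnt6 differed by -0.03 (exact permutation p = 0.867), with 2.88 ± 0.16 in DTG skin (SD, n = 4) and 2.91 ± 0.41 in Control skin (SD, n = 2). In the main setting neither test could pass, since with 2 Control arrays the smallest possible exact permutation p is 0.0667. With flagged spots kept neither passed after adjustment (exact permutation, adjusted p = 0.0857 and 0.971). The adjustment over the 3 pairs also counts Wnt3a minus Wnt3.

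Several Wnt genes sit side by side in the mouse genome, and their direct neighbours were read as well. The 10 ligands have 20 nearest protein-coding neighbours, of which 17 were tested, with Wnt6 and Wnt10a counted as each other's neighbour. Of those 17, 7 were called lower, 2 higher and 8 were not called, against 21.3% lower and 11.2% higher of all genes tested. Wnt9a next to Wnt3a was at -0.46, Wnt9b next to Wnt3 at -1.71 and Wnt1 next to Wnt10b at -0.36, all called lower. The call of Wnt9b rests on DTG signals below background, and Wnt1 was called in 4 of 23 alternative settings, with a second probe at 0.25. Among the neighbours that are no Wnt gene, 12 were tested. Of these, 2 were lower (Ppara beside Wnt7b, a lipid-sensing receptor, at -0.61, and Lrtm1 beside Wnt5a at -0.69), 2 were higher (Cttnbp2nl beside Wnt2b at 0.54 and Zbtb40 beside Wnt4 at 0.42) and 8 were not called. Arf1, the other neighbour of Wnt3a, was at 0.007 (SE 0.08), and Nsf, the other neighbour of Wnt3, at -0.10 (SE 0.12), neither of them called; these 2 were picked for mention after their values were seen.

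**Figure D3:**
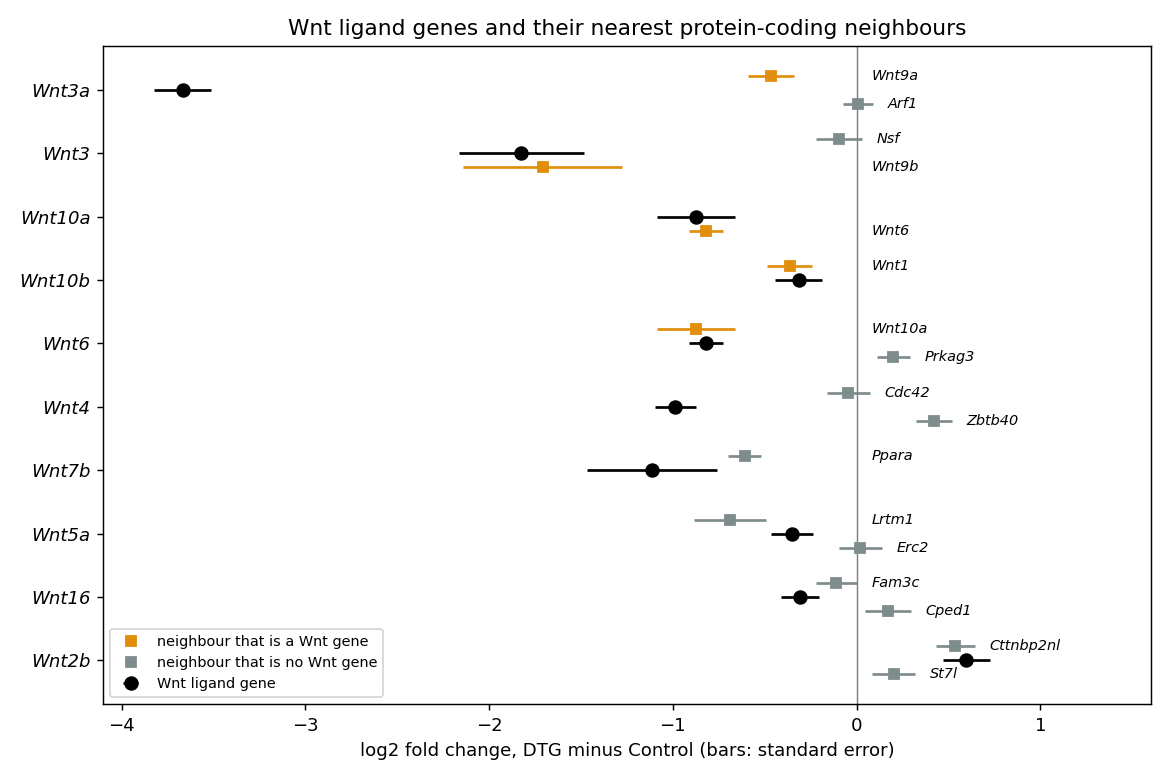
Log2 fold change, DTG minus Control, of each Wnt ligand and of its nearest tested protein-coding gene on either side; points are genes and bars are standard errors of the limma fit. Wnt3a and Wnt3 each have 1 neighbour near 0, Arf1 and Nsf, and 1 Wnt neighbour below 0, Wnt9a at -0.46 and Wnt9b at -1.71; the Wnt3a and Wnt9b points are fits to DTG signals below background.

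Among the Wnt ligands outside the 10, calls were likewise for lower levels in DTG skin. Of 9 tested, 6 were called lower, 0 higher (limma, also 0 at an unadjusted p under 0.05) and 3 were not called, with a median of -0.46, which was 0.02 on the spike-in scale. Over all genes tested, 21.3% were called lower and 11.2% higher. Wnt2 stood out, with -4.16, -4.03, -4.57 and -4.12 in DTG skin against -2.39, -3.36, -3.06 and -2.72 in Control skin. It fell by 1.34 on the log2 scale, or 2.52-fold (SE 0.22, limma adjusted p = 0.0029), and was still lower on the spike-in scale at -0.85 (adjusted p = 0.0188). Wnt9b was well above background on 0 of 4 DTG and 3 of 4 Control arrays. No bound is given for its fold. The lowest signals well above background averaged -5.40 on DTG arrays, close to the Wnt9b Control mean of -5.34. That mean includes Control 1, at -6.19 and not well above background. The Wnt9b probe passed the filter through Control alone, so the adjusted p of the fit (limma, 0.0187) rests on DTG signals below background and supports nothing. Wnt8a, Wnt9a, Wnt5b and Wnt1 lay between -0.52 and -0.36, and Wnt7a, Wnt8b and Wnt11 were not called. Probes disagreed for Wnt1, whose second probe gave 0.25 (limma adjusted p = 0.055), and for Wnt8b, whose second probe gave -0.74 (adjusted p = 0.011) with no DTG array well above background.

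Genes that carry, receive and answer Wnt signals were read from 7 lists. The calls in all 7 stand beside 21.3% lower and 11.2% higher among all genes tested. Of 9 secretion and deacylation genes, 1 was lower and 1 higher, with a median of 0.13. The lower one was Wls, the carrier of Wnt proteins to the cell surface, at 0.36, 0.30, 0.13 and 0.49 in DTG skin against 1.01, 1.27, 1.47 and 1.24 in Control skin. Wls fell by 0.93 on the log2 scale (SE 0.12, limma adjusted p = 0.00125), and was at -0.44 and not called on the spike-in scale (adjusted p = 0.116). The higher one, Tmed5, was at 0.68 (limma adjusted p = 0.0017) but at -0.02 with flagged spots kept. The probe behind 0.68 had a value on every array, so the -0.02 probably comes from another, brighter Tmed5 probe. Of 16 Wnt receptor genes 0 were called higher (limma, 2 at an unadjusted p under 0.05) and 2 lower, Fzd10 at -1.30 (SE 0.23, limma adjusted p = 0.0043) and Fzd2 at -0.66 (SE 0.20), with a median of -0.22.

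Targets of beta-catenin had a median of -0.58, and 7 of 15 were called lower and 0 higher (limma, also 0 at an unadjusted p under 0.05). The 7 include Dkk4 and Znrf3, which had no DTG array well above background and passed the filter through Control alone. Axin2, the feedback scaffold most used as a readout of canonical signalling, was at -2.45, -1.97, -2.28 and -1.95 in DTG skin and -1.53, -1.57, -1.33 and -1.34 in Control skin. All DTG arrays lay below all Control arrays, and Axin2 fell by 0.72 (SE 0.14, limma adjusted p = 0.0057), but averaged over its kept probes it was at -0.13 and not called. Nkd1, a feedback inhibitor, was at -0.91 (SE 0.16), and at -0.32 and not called when averaged over probes. Rnf43 and Znrf3, ubiquitin ligases that remove Frizzled receptors, were both lower. Rnf43 was at -0.84 (SE 0.16), and Znrf3 was lower by at least 1.82-fold on the main scale, with no DTG array well above background. On the spike-in scale the target median was -0.09.

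The other lists lay closer to the median gene, at -0.33 for the R-spondin system (3 of 9 lower, 1 higher), -0.21 for secreted inhibitors (3 of 10 lower, 0 higher, and also 0 higher at an unadjusted p under 0.05), -0.15 for the beta-catenin cascade (3 of 15 lower, 1 higher) and -0.22 for planar polarity genes (3 of 10 lower, 1 higher). The lower calls of Rspo2, Znrf3 and the inhibitor Dkk4 rest on DTG signals not well above background. Their probes passed the filter through Control alone. The lists share genes. The beta-catenin target list has Rnf43, Znrf3, Lgr5, Dkk4, Lef1, Tcf7 and Notum in common with other pathway lists. Fzd3 and Fzd6 are in both the receptor and the polarity list. Among the inhibitors, Dkk2 was at -0.61 (SE 0.15) and Sfrp5 at -0.55 (SE 0.13), while Dkk1 and Sost did not pass the filter. In the cascade, Dvl1, which relays the receptor signal, was lower at -0.66 (SE 0.11) and its relative Dvl2 higher at 0.51 (SE 0.17). The DNA-binding partners Tcf7l1 and Tcf7l2 were at -0.48 (SE 0.14) and -0.39 (SE 0.12), the second turning to 0.094 on the spike-in scale. Celsr1 and Celsr2, adhesion receptors of the polarity system, were at -1.05 (SE 0.14) and -0.77 (SE 0.14), and among the cytoplasmic polarity proteins Prickle1 was at -0.45 (SE 0.14) and Prickle2 higher at 0.70 (SE 0.12). Prickle1 was at 0.029 on the spike-in scale.

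**Figure D4:**
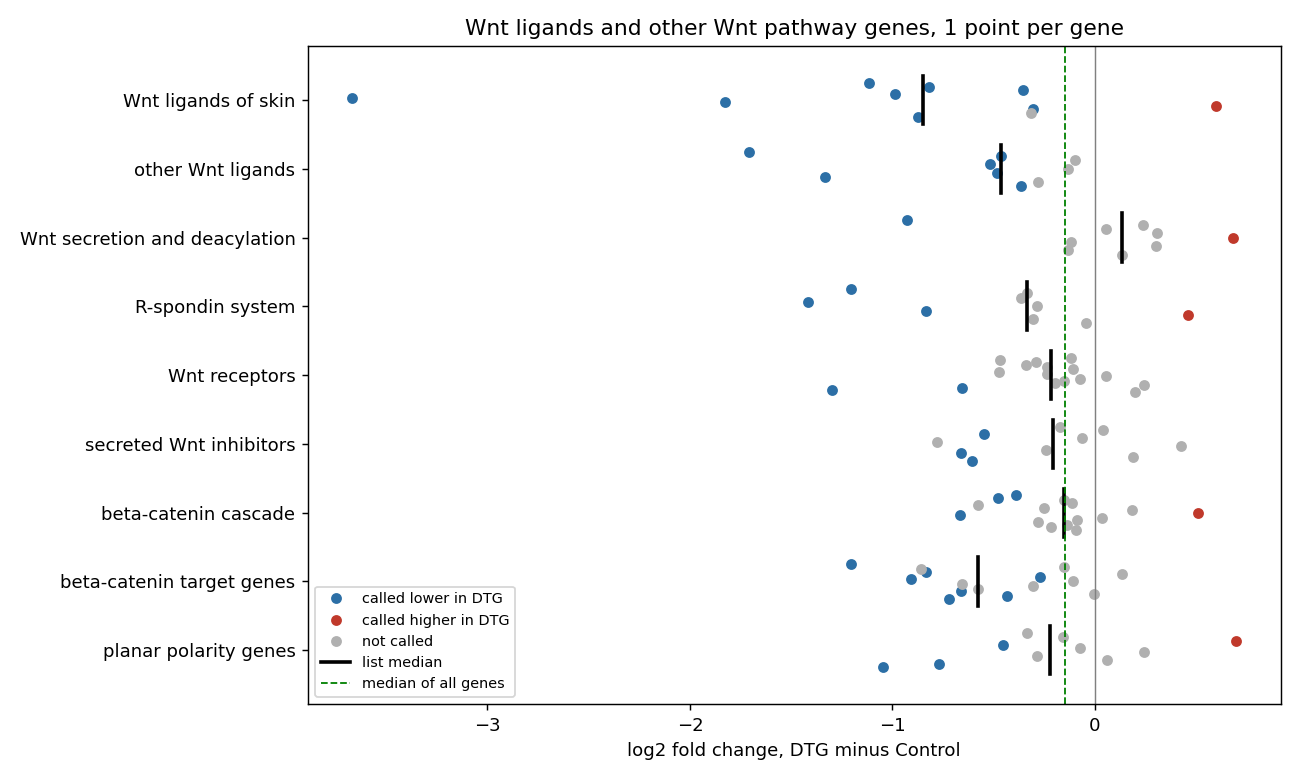
Log2 fold change, DTG minus Control (horizontal axis), of every tested gene of the Wnt ligands and the pathway lists; points are genes, and the vertical marks are list medians. The 10 Wnt ligands have the lowest median, -0.85, and the target genes follow at -0.58, against -0.15 over all genes.

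Markers of the cell types that make or receive Wnt signals were read beside these results. Their counts stand beside the 21.3% lower and 11.2% higher of all genes tested. By limma, 3 of 7 basal epidermis genes were lower and 0 higher, also at an unadjusted p under 0.05, and their mean level per array ran from 2.98 to 3.12 in DTG skin and from 3.20 to 3.61 in Control skin. Of 6 hair follicle stem cell genes, 3 were lower and 0 higher (5 and 0 unadjusted), with mean levels of 1.37 to 1.88 in DTG skin and 2.13 to 2.30 in Control skin. Of 12 hair matrix and shaft genes, 1 was higher and 0 lower (1 and 2 unadjusted), and the array means overlapped, at -3.23 to -2.61 in DTG skin and -3.29 to -2.63 in Control skin. Dermal papilla genes gave 0 calls of 8 (1 higher unadjusted), with -0.76 to -0.44 in DTG skin and -1.24 to -0.61 in Control skin. Of 7 adipocyte genes 5 were lower, of 6 Schwann cell genes 4, of 9 fibroblast genes 3, of 5 melanocyte genes 2, and of 7 muscle, 6 endothelial and 6 immune genes 1 each. Suprabasal epidermis had 2 of 5 lower and 1 higher, and sebaceous gland 1 of 5 lower and 2 higher. Sox2, on the dermal papilla list, was well above background on 0 of 4 DTG and 3 of 4 Control arrays, and each of the other tested markers was so on at least 1 array of each group. The part of these cell types in the Wnt results was not tested.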

How the data were processed

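Per the file headers, spot intensity was extracted with Agilent Feature Extraction 11.5.1.1 (10.7 per the submitters' processing notes), and the deposited processed signal is a background-corrected intensity on a linear scale. The headers name build mm9. Probes were named by matching their accessions to a RefSeq gene table (GRCm38.p6), which named 26762 of 55681 probes. Promoter sequences and gene neighbours came from RefSeq tables of that assembly.

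Signals were turned to log2, outlier-flagged spots were left out, and the 75th percentile of each array was subtracted. A probe was kept when at least 3 of the 4 arrays of a group had it well above background, and the brightest kept probe stood for a gene, with at least 2 values per group. The comparison of DTG with Control used limma 3.58.1 in R 4.3.3 over 17724 genes, with Benjamini-Hochberg adjustment. A separate fit over 23144 probes showed where probes disagree. In simulated data the fit recovered 73% of changes of 1 and 98% of changes of 2 on the log2 scale. Precision is limited by the number of arrays, with a median SE of 0.14 per gene. Where a group had no array well above background, a fold is given only as a bound, and each bound holds on the main scale only. The bounds are approximate, since a spot above an array's lowest well-above-background signal can still fail that mark. Wnt8b on DTG 3, at -5.32, failed it where the lowest such signal was -5.35.

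The 10 ligands and all gene lists were chosen with earlier results of these data known. Named genes are the ligands, up to 4 called genes of each pathway list with the smallest p, and called neighbours; markers are given as counts. The authors' deposited value table of intensity served as an alternative, as did other scalings, normexp on the median signal (the mean signal that was planned has no column), other filters, the slide column as a block, the Xist classes, and each array left out.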

Additional observations from a re-analysis of the deposited data

Results flagged for a closer look

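Among 37 groups of 4 values of the 19 Wnt ligands, 2 held an array far from the others, and chance alone flags about 1 in 20 such groups. Wnt9b on DTG 4 was at -6.00, where the nearest DTG array was at -7.31. None of the DTG arrays was well above background for Wnt9b. Wnt5a on Control 4 was at -0.036, where the nearest Control array was at -0.40.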

How the results depend on the processing

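Against 8 ligands lower and 1 higher, with 3778 genes lower and 1978 higher (4577 and 2688 probes), no scaling gave 5 ligands, 1598 genes and 1963 probes lower. The spike-in scale gave 2 ligands, 406 genes and 478 probes lower, with 5642 genes and 7145 probes higher. The basal epidermis scale, added after the data were seen, gave 4 ligands, 771 genes and 949 probes lower, with 4027 genes and 5286 probes higher. Without a filter on dim probes 3163 genes and 4321 probes were higher. The authors' deposited value table gave 4 ligands and 3547 genes lower. The 5 arrays of high Xist gave 3 ligands lower and 0 higher (limma), with 1436 genes lower and 1201 higher (1672 and 1489 probes). The 3 arrays of low Xist, with a single DTG array assumed to vary like Control, gave 1 ligand lower and 0 higher (limma), with 321 genes lower and 394 higher (216 and 471 probes). The 1 ligand lower within low Xist was Wnt3a, which was called lower in all 22 settings that gave it a value. Its DTG signals were below background and its probe passed the filter through Control alone. That call therefore shows nothing of the stability of the ligand result. The slide column as a block, a replicate block in layout only since the labels carry no replicate number, gave 4 ligands and 2799 genes lower. Leaving out each array in turn gave 4 to 6 ligands, 2493 to 3388 genes and 2938 to 4057 probes lower, lowest for genes and probes without Control 3. On the spike-in scale the sign turned for Wnt5a (0.13), Wnt10b (0.17), Wnt16 (0.18, other probe 0.26), Wnt1 (0.12), Wnt5b (0.0020), Wnt7a (0.35), Wnt8b (0.39), Wnt9a (0.018), Wnt11 (0.20), Tcf7l2 (0.094) and Prickle1 (0.029). On the basal epidermis scale it turned for Wnt10b (0.00064), Wnt16 (0.0073, other probe 0.093), Wnt7a (0.18), Wnt8b (0.22) and Wnt11 (0.036). Wnt8b also turned with quantile scaling (0.022), no scaling (0.025) and low Xist (0.048), and ran from -0.26 to 0.092 with arrays left out. The other Wnt16 probe was at 0.025 after normexp. Tmed5 was at -0.0064 in the authors' deposited table and at -0.023 with flagged spots kept, probably both from another probe. Msi1 was at -0.026 when all 8 arrays had to be above background. That filter counts a flagged spot as failing, so the flagged DTG 1 spot removed the brighter Msi1 probe and left only the other. The pair Wnt3a minus Wnt3 gave -0.34 after normexp. Wnt10a minus Wnt6 gave 0.042 with quantile scaling and 0.0080 with flagged spots kept, and -0.095 to 0.034 with arrays left out. The cause was not tested for any of these. Wnt10a gave no value in 6 settings. Wnt3a gave none where all 8 arrays had to be above background, since no DTG array was. The exact tests of pairs take no block or covariate.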
